A study of Mus musculus with 10 samples.

Results

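The 6 genes described here, Igfbp2, Igfbp3, Igfbp4, Igfbp5, Igfbp6 and Igfbp7, are the insulin-like growth factor (IGF) binding protein genes read in endothelial cells (ECs) of mouse long bone. They were chosen by family name from the 26504 genes listed in the deposited single-cell tables, and their counts were followed across endothelial types, ages, treatments and the stromal cells of the same sorts. All 6 passed the filter on low counts over all ECs. Igfbp1, the remaining member of the classical family, belonged instead to the list of 24 other IGF genes, and it was nearly absent, with a mean of 0.120 CPM (UMI counts scaled to a common total) in its highest type.

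IGF binding proteins are secreted proteins that hold IGF1 and IGF2 outside the cell. They lengthen the life of the ligands, keep them from the receptor IGF1R or deliver them locally, and proteases such as pappalysin (Pappa) cut some of them to free the ligand. Igfbp3 and Igfbp5 are the members that join IGFs in the large complexes of blood, Igfbp6 prefers IGF2, and Igfbp7 binds IGFs weakly and is a component of vessel walls. In bone, osteoblasts and marrow stromal cells are known sources of several of these proteins.

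The measurements came from 10 libraries of single-cell RNA sequencing, in 5 groups of 2. Femora and tibiae were taken from Cdh5-mTnG mice on a C57BL/6 background, in which the endothelial Cdh5 promoter drives a nuclear GFP, so every group carried that reporter. Lineage-positive blood cells were depleted and the reporter-positive cells were sorted. Juvenile mice were 3 weeks old and of both sexes. Adult mice were 12-week-old females, and aged mice were 75-week-old females. The other 2 groups were 12 weeks old and had received PTH (parathyroid hormone 1-34, a bone-building hormone fragment) or alendronate (a bisphosphonate that blocks bone resorption). Animals were pooled within a group and the experiment was done once, so the 2 libraries of a group do not measure the spread between mice, and p-values below refer to the spread between libraries. Age and sex were mixed in the juvenile comparison and cannot be told apart.

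Library totals ranged from 10653583 to 28419323 unique molecular identifiers (UMIs, each standing for 1 captured RNA molecule). Of 47466 barcodes, 46283 held 500 to 6000 genes and under 25% mitochondrial UMIs, and these cells had median depths of 3075 to 5149 UMIs. PTH replicate 1 stood apart, with the lowest total and no barcode under 1180 genes, and values that rest on it are given with and without it where a call moved. The aged libraries shared 3 or 4 barcodes with any other library against 10 to 88 among the younger ones, and they alone listed 276 gene symbols starting with U (1.52% and 1.53% of their UMIs). Those symbols were removed. Library preparation and age therefore cannot be told apart in the aged comparison.

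Igfbp2 and Igfbp5 are neighbours on mouse chromosome 1 (GRCm38, GENCODE vM21). Igfbp2 lies on the plus strand at chr1:72824503-72852474 and Igfbp5 on the minus strand at chr1:72857932-72874884, and 5457 bases separate the ends of the genes. Igfbp3 lies on the minus strand at chr11:7206086-7213923, 3539 bases from Igfbp1, and Igfbp4 on the plus strand at chr11:99041244-99054392. Igfbp6 lies on the plus strand at chr15:102144362-102149511 and Igfbp7 on the minus strand at chr5:77349240-77408041, where its exons overlap those of Polr2b. The strand setting of the counting is not given in the sources used here, so reads of Igfbp7 and Polr2b in that overlap cannot be told apart.

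The promoters of the neighbouring pair are shown because both genes were higher in juvenile than in adult ECs, while they parted in aged ECs. The windows run from 250 bases before to 50 bases after a RefSeq start (GRCm38.p6), chr1:72824230-72824529 on the plus strand for Igfbp2 and chr1:72874816-72875115 on the minus strand for Igfbp5. Capitals mark GGGCGG, the GC box, the only searched motif found in either window on either strand.
Igfbp2 promoter: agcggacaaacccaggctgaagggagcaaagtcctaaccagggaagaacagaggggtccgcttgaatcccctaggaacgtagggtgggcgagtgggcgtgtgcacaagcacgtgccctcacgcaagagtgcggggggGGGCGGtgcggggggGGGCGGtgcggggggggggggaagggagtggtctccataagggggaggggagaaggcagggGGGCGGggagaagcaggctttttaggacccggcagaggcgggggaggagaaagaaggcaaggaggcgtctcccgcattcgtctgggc
Igfbp5 promoter: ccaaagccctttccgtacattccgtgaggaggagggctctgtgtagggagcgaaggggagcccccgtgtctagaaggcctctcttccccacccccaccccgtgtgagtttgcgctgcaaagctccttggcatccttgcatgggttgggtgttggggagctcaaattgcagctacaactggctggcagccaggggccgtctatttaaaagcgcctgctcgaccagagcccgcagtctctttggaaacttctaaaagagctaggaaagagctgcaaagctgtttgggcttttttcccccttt
The Igfbp2 window held 3 GC boxes and 67% G or C, the Igfbp5 window none and 56.3%. A second RefSeq start of Igfbp2, with its window at chr1:72825137-72825436, held 0 GC boxes and 57.3%, so the GC boxes belong to only 1 of the Igfbp2 windows. GGGCGG occurred in 35.7% of 32851 promoter windows of that length, whose median G or C content was 52.7%. The Igfbp7 window held 4 GC boxes, and the Igfbp4 and Igfbp6 windows 1 TATAAA each, a motif found in 13.6% of windows. The Igfbp6 match lay on the strand opposite to the gene, so its window reads TTTATA there. GTAAACA, a forkhead motif found in 3.65% of windows, was in none of the members' windows. A match to these letters is a description of sequence and does not show a bound site.

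Cells were clustered with the IGF genes held out and named from marker genes. ECs made up 43728 cells, beside 489 mesenchymal, 54 mural, 1463 haematopoietic and 549 erythroid cells. The largest class was bmEC-like, the sinusoidal ECs of marrow (15104 cells; Stab2, Rgs4, Vcam1, Adamts5). Cells led by Wnt5b, Enpp6 and Crispld1 formed a Crispld1/Wnt5b-like class (4927 cells). Ramp3 and Aplnr, markers of the metaphyseal list, were also among its leading genes, and that list came next after its own. The summed metaphyseal markers had a median of 936 plain CPM there, against 2328 in the mpEC-like cells named below. Arterial aEC-like cells (9325; Gja4, Gja5, Mgp) fell mainly into cluster 1, led by Mgp and Gja5, and cluster 3, led by Gja4 and Rbp7. Metaphyseal mpEC-like cells (5901) fell into cluster 4, led by Kcne3, Ramp3 and Apln, and cluster 10, whose median depth was 1150 UMIs and whose leading gene was the repeat-derived Gm10800. Remodelling-bone rEC-like cells (4971) fell into cluster 5 (Timp4, C1qtnf9, Aqp7) and cluster 9 (Tagln, Vwf, Fmo2), and 615 cells were proliferating, pEC-like (Top2a, Mki67). The 2885 ECs left unnamed were 2838 sinusoidal-like cells led by haemoglobin genes and 47 cells led by Ccl21a and Lyve1. The 4 general endothelial markers summed to between 3157 and 4285 plain CPM in the ECs of every library.

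Each type was compared with the mean of the other types within the same libraries, and calls needed an adjusted p below 0.05 together with a difference beyond 1 on the log2 scale. All 5 binding proteins other than Igfbp7 were called in at least 1 type, 18 calls of 36 in all. In bmEC-like cells 2 members were called higher and 2 lower, where 14.0% of all 11550 genes were called, 6.23% higher and 7.74% lower. The Crispld1/Wnt5b-like class had 2 members higher and 1 lower, where 4.88% of genes were called (1.8% higher, 3.08% lower). The aEC-like cells had 1 higher and 2 lower, where 10.4% were called (4.88% higher, 5.56% lower), and mpEC-like cells 3 higher and 0 lower, where 5.58% were called (2.32% higher, 3.26% lower). The rEC-like cells had 1 higher and 3 lower, where 13.7% were called (6.78% higher, 6.88% lower), and pEC-like cells 1 higher and 0 lower, where 9.02% were called (6.43% higher, 2.59% lower). The median log2 difference of the 6 members ran from -0.90 in aEC-like to 0.70 in mpEC-like cells, while that of all genes lay within 0.05 of 0. The types were drawn from the same cells, so these tests describe the classes and are not an independent test of them. Values per type are CPM scaled by TMM (a trimmed mean that evens out library composition), as mean ± SD over 10 libraries, or 8 for pEC-like cells, which had too few aged cells to sum.

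**Figure D1:**
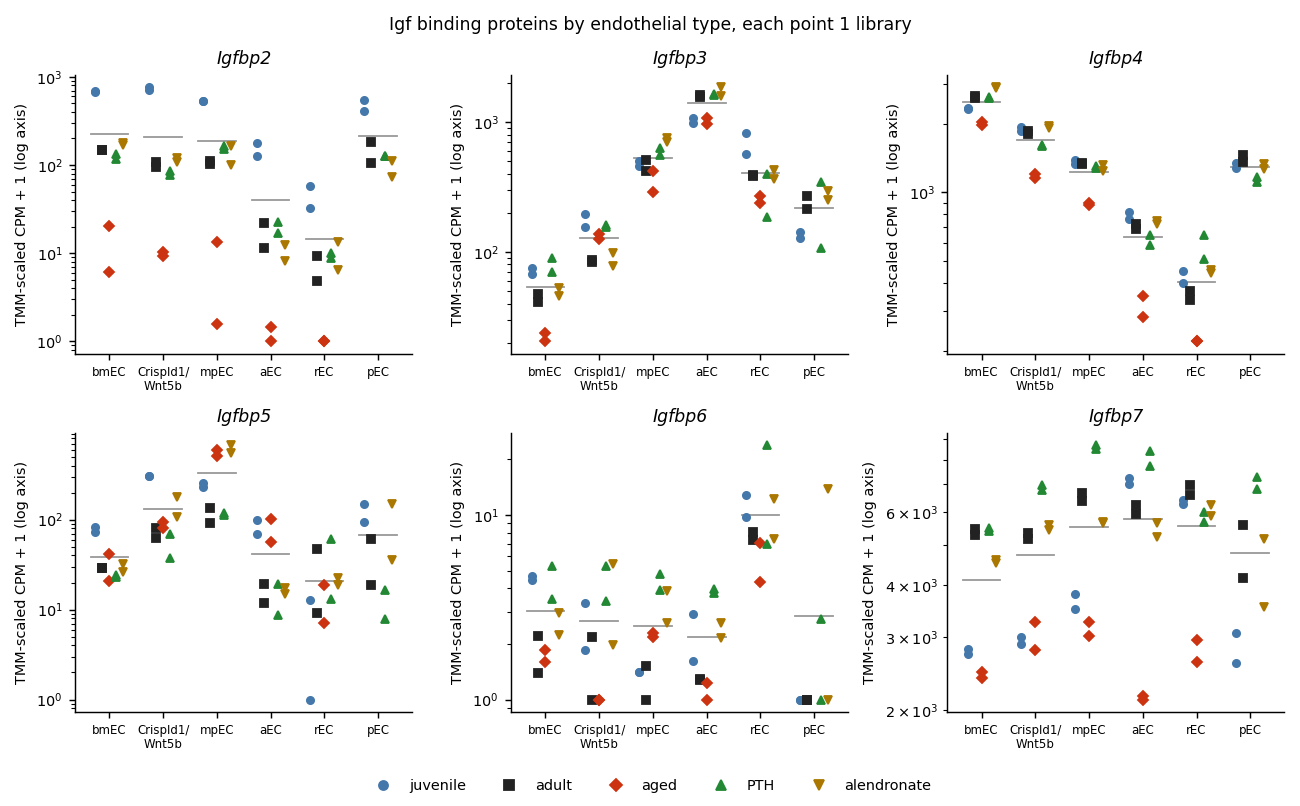
Level of each of the 6 Igfbp genes by endothelial type on a log axis (TMM-scaled CPM + 1); each point is 1 library (n = 10, pEC-like n = 8) and the grey line is the mean. Igfbp3 was highest in aEC-like cells and lowest in bmEC-like cells in 10 of 10 libraries, Igfbp4 peaked in the bmEC-like class in 10 of 10, and Igfbp7 was spread over all types.

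Igfbp4, a member mostly known for holding IGF away from its receptor, was the sinusoidal gene of the group. It reached 2487 ± 313 CPM in bmEC-like cells, with a lowest library of 1981, a median of 2585 and a highest of 2889. The Crispld1/Wnt5b-like class followed with 1688 ± 296, then pEC-like cells with 1287 ± 111, mpEC-like cells with 1228 ± 185, aEC-like cells with 632 ± 180 and rEC-like cells with 404 ± 129. Every neighbouring pair in that order differed except pEC-like and mpEC-like cells (adjusted p = 0.663, edgeR's quasi-likelihood test). The pEC-like mean leaves out the aged libraries, and with the library as a block pEC-like minus mpEC-like cells gave a log2 difference of -0.06. Against the mean of the other types, Igfbp4 was higher in bmEC-like cells by a log2 fold change of 1.48 (SE 0.06, adjusted p = 4.96e-30) and lower in rEC-like cells (-1.72, SE 0.08, adjusted p = 2.83e-27). After thinning every cell to 1000 UMIs, 88.0 ± 2.45% of bmEC-like cells held an Igfbp4 UMI (99.4% unthinned, median depth 4029) and 21.5 ± 9.26% of haematopoietic cells did (53.9% unthinned, median depth 5464). The rEC-like share at that depth was 23.7 ± 8.44%, near that of the haematopoietic cells, which serve here as a rough measure of UMIs from outside the cell. That measure depends on the cells chosen, since erythroid cells held 104 plain CPM of Igfbp4 and haematopoietic cells 291. Whether haematopoietic cells make Igfbp4 themselves was not tested.

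Igfbp3, the main carrier of IGF in blood, had almost the reverse order. It was highest in aEC-like cells in each of the 10 libraries, at 1399 ± 337 CPM (lowest 959, median 1587, highest 1858). The values then fell in steps through mpEC-like cells (524 ± 142), rEC-like cells (404 ± 183), pEC-like cells (218 ± 86.4) and the Crispld1/Wnt5b-like class (127 ± 40.2) to bmEC-like cells (52.5 ± 22.5), the lowest in every library. All 5 neighbouring pairs differed, with adjusted p-values from 2.95e-10 to 0.0364. The aEC-like difference from the other types was 2.88 on the log2 scale (SE 0.12, adjusted p = 4.35e-29) and the bmEC-like one -2.87 (SE 0.17, adjusted p = 6.67e-22). At 1000 UMIs, 43.3 ± 6.07% of aEC-like cells and 4.22 ± 1.62% of bmEC-like cells held an Igfbp3 UMI, beside 3.11 ± 1.95% of haematopoietic cells. The unthinned shares were 62.2%, 14.7% and 16.5%. The bmEC-like share thus lay near background. It was above the haematopoietic share in both juvenile libraries (5.72% and 5.19% against 0.414% and 2.82%). By less, it was also above in the adult (3.20% and 3.74% against 2.46% and 3.54%) and aged libraries (2.80% and 1.42% against 1.36% and 1.02%). In alendronate libraries it was below (4.02% and 3.63% against 4.20% and 3.82%), and in PTH libraries it was 6.90% and 5.55% against 7.07% and 4.36%. Within the arterial class the Mgp/Gja5 cluster 1 held 1728 and the Gja4/Rbp7 cluster 3 held 1263 plain CPM.

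Igfbp5, which binds the matrix of bone and is also made by osteoblasts, had its highest level in the mpEC-like class in 8 of 10 libraries, at 326 ± 229 CPM (lowest 91.0, median 243, highest 669). In both juvenile libraries the Crispld1/Wnt5b-like class was higher, at 304.5 and 308 CPM against 254 and 232. Over all libraries that class held 132 ± 99.2 CPM, and pEC-like, aEC-like, bmEC-like and rEC-like cells held 65.7, 40.9, 37.1 and 20.1 CPM on average. Only the step from mpEC-like to Crispld1/Wnt5b-like cells passed the test among neighbours (adjusted p = 2.65e-04). The mpEC-like difference from the other types was 2.69 (log2, SE 0.23, adjusted p = 9.40e-15) and ranged from 1.11, when cells were named by a marker gate instead of clusters, to 3.34. The lower calls in bmEC-like (-1.02) and aEC-like cells (-1.1) lay close to the fold threshold, and the bmEC-like call was lost under several alternatives, with a smallest difference of -0.12 without integration. The Crispld1/Wnt5b-like call (1.04, SE 0.26, adjusted p = 9.98e-04) dropped under the fold threshold without juvenile replicate 1 (0.94), juvenile replicate 2 (0.96) or alendronate replicate 1.

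Igfbp2, a member abundant in growing tissues, was found in 4 types at higher levels than in the other 2. Its means were 226 ± 243 CPM in bmEC-like, 210 ± 173 in pEC-like, 208 ± 282 in Crispld1/Wnt5b-like and 185 ± 188 in mpEC-like cells, against 38.9 ± 60.6 in the aEC-like class and 13.5 ± 17.6 in the rEC-like class. The pEC-like mean leaves out the aged libraries, which held the least Igfbp2, so its place in this order is not on equal terms. With the library as a block, pEC-like minus Crispld1/Wnt5b-like cells gave a log2 difference of -0.09. The spread over libraries was wide, and the levels by age are given further on. In this order bmEC-like and pEC-like cells differed (0.48, SE 0.21, adjusted p = 0.0470, higher in 6 of 8 libraries), as did aEC-like and rEC-like cells (1.18, SE 0.33, adjusted p = 0.00301). So did mpEC-like and aEC-like cells (log2 difference 2.73, SE 0.19, adjusted p = 1.66e-18, higher in 10 of 10 libraries), whereas pEC-like and Crispld1/Wnt5b-like cells (adjusted p = 0.80) and Crispld1/Wnt5b-like and mpEC-like cells (adjusted p = 0.640) did not pass the test. The rEC-like difference from the mean of the other types was -3.35 (SE 0.26, adjusted p = 5.33e-17). In adult rEC-like cells Igfbp2 stood at 8.28 and 3.81 CPM, beside 7.67 and 8.50 plain CPM in the haematopoietic cells of the same libraries, so it was not above background there.

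Igfbp7 was the member with the least difference between endothelial types. Its means ran from 4111 ± 1348 CPM in bmEC-like to 5769 ± 2147 CPM in aEC-like cells, no type passed both thresholds, and 1 pair of neighbours in the order differed (mpEC-like above pEC-like cells, adjusted p = 0.0189). The largest differences from the other types were -0.31 in bmEC-like (SE 0.10) and 0.26 in aEC-like cells (SE 0.09). At 1000 UMIs 88.0 ± 9.98% of all ECs and 19.3 ± 9.54% of haematopoietic cells held an Igfbp7 UMI, and the unthinned shares were 96.2% and 52.8%. Clusters within a type were less alike: cluster 1 of the arterial class held 4013 and cluster 3 held 7607 plain CPM of Igfbp7.

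Igfbp6 was detected at very low levels in ECs, with 403 UMIs in 43728 cells. It was higher in rEC-like cells, at 8.99 ± 5.50 CPM (lowest 3.34, median 6.74, highest 22.8), than in the other types, whose means were 1.18 to 2.02 CPM, and the log2 difference was 2.73 (SE 0.27, adjusted p = 4.71e-13). Most of it lay in cluster 9, the Tagln/Vwf cells, with 15.2 plain CPM against 1.79 in cluster 5. The share of rEC-like cells with an Igfbp6 UMI at 1000 UMIs was 0.616 ± 0.435%, beside 0.365 ± 0.407% of haematopoietic cells (unthinned 1.61% and 1.3%), so single rEC-like cells were not told from background. The sum of the 7 mesenchymal markers was also highest in rEC-like cells, at 57.6 to 166 plain CPM over the libraries against 3.52 to 45.4 in the other types, and its part in the Igfbp6 level was not tested. Over all ECs Lepr made up most of that sum, at 19.1 plain CPM against 0.117 to 2.75 for each other marker. Whether ECs make Lepr themselves was not tested.

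Ages were compared first over all ECs, with TMM-scaled CPM of replicates 1 and 2 in that order. Igfbp2 carried the largest change of the family. It stood at 578 and 604 CPM in juvenile, 99.6 and 104 in adult, and 3.84 and 5.39 in aged ECs. Both juvenile libraries lay far above both adult ones, and both aged libraries far below, with no overlap. The juvenile-adult log2 fold change was 2.54 (SE 0.05, adjusted p = 5.70e-21, edgeR's quasi-likelihood test) and the aged-adult one -4.46 (SE 0.09, adjusted p = 4.55e-21). Of 15314 genes, 53 lay as far or farther from 0 in the same direction in the juvenile comparison and 25 in the aged comparison, Igfbp2 included. At 1000 UMIs the share of ECs with an Igfbp2 UMI was 35.1% and 35.9% in juvenile, 7.23% and 7.75% in adult, and 0.271% and 0.202% in aged libraries; an exact two-sided permutation test of 2 libraries against 2 cannot go below 0.33, which both comparisons gave.

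Igfbp5 had a different course. Juvenile ECs held 142 and 131 CPM, adult ECs 44.0 and 38.7, and aged ECs 98.1 and 119, so the adult libraries were the lowest of the 3 ages. At 1000 UMIs the share of ECs with an Igfbp5 UMI was 8.77% and 7.92% in juvenile, 2.46% and 2.24% in adult, and 2.85% and 3.29% in aged libraries, so the aged share moved far less than the aged level. The log2 fold change from adult was 1.72 in juvenile (SE 0.10, adjusted p = 2.35e-12) and 1.39 in aged ECs (SE 0.10, adjusted p = 2.14e-11). Igfbp3 stood at 250.2 and 261 CPM in juvenile, 421 and 443 in adult, and 368 and 417 in aged ECs. It was lower in juvenile ECs (-0.76, SE 0.05, adjusted p = 1.58e-10). The aged difference (-0.14, SE 0.05, adjusted p = 0.0243) was lost with DESeq2, without the filter on low counts, without adult replicate 2 and without aged replicate 1, and it turned to 0.21 with plain totals, a scaling that shifted the median of all genes by 0.37 on the log2 scale.

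Igfbp4 did not differ detectably between juvenile (1903 and 1880 CPM) and adult ECs (1838 and 1817 CPM; log2 fold change 0.05, adjusted p = 0.221), and it was lower in aged ECs, at 873 and 854 CPM (-1.08, SE 0.03, adjusted p = 7.17e-18). Igfbp7 was highest in the adult: 3440 and 3370 CPM in juvenile, 5594 and 5693 in adult, and 2314 and 2351 in aged ECs. Its log2 fold changes from adult were -0.73 in juvenile (SE 0.03, adjusted p = 1.78e-14) and -1.27 in aged ECs (SE 0.03, adjusted p = 2.28e-19). Igfbp6 moved between 0.724 and 2.53 CPM over the 6 libraries, with a call in the juvenile comparison (1.45, SE 0.35, adjusted p = 1.94e-03) and none in the aged one (0.31, adjusted p = 0.516). In juvenile ECs 3 members were called higher and 2 lower, where 43.1% of all genes were called (21.1% higher, 22.0% lower), and in aged ECs 1 higher and 4 lower, where 73.8% were called (37.3% higher, 36.5% lower). With so many genes called, the number of members called does not set the family apart. The members' median log2 fold change was 0.75 and -0.61, and that of all genes was close to 0 after TMM.

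**Figure D2:**
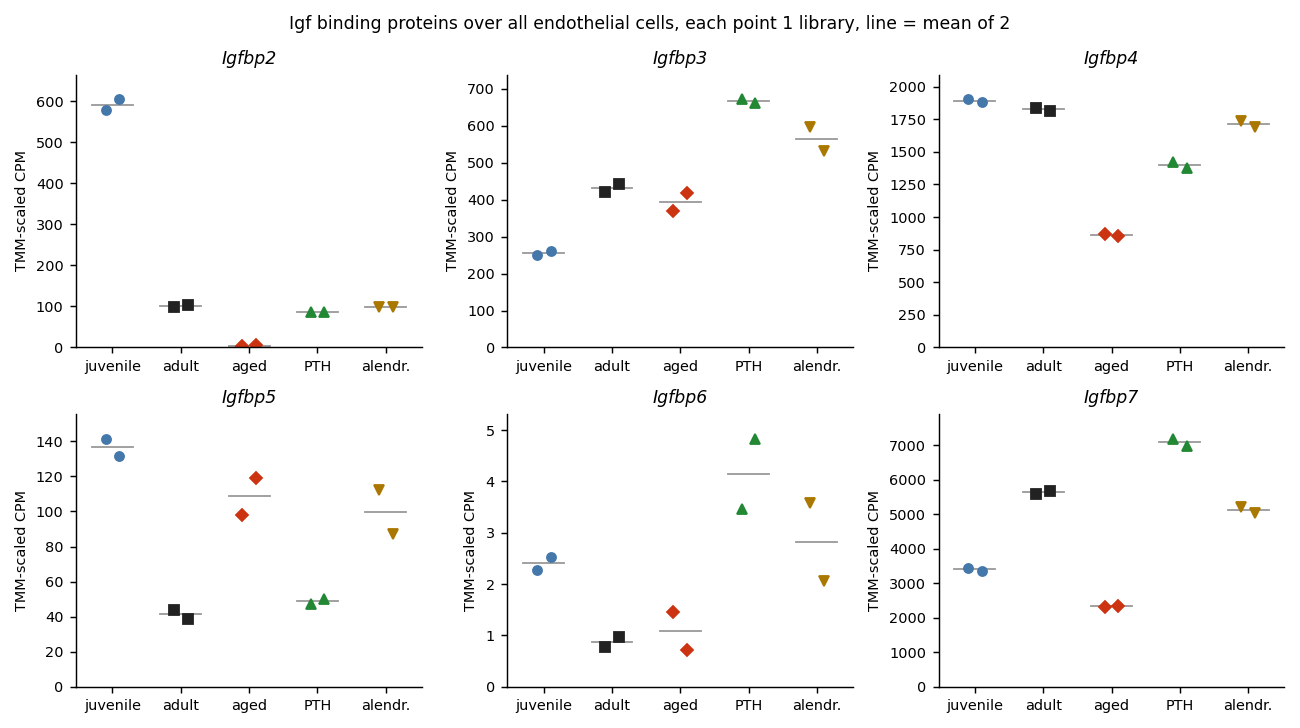
Level of each Igfbp gene in all endothelial cells by group (TMM-scaled CPM, linear axes from 0); each point is 1 of 2 libraries. Igfbp2 falls from 578 and 604 CPM in juvenile to 3.84 and 5.39 CPM in aged cells, and Igfbp7 is highest with PTH at 7198 and 6980 CPM.

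The mix of types also differed between ages, so each type was summed and tested alone. Of all genes tested, 36.9% were called in juvenile and 64.7% in aged bmEC-like cells, 19.8% and 55.9% in the Crispld1/Wnt5b-like class, 19.7% and 63.0% for aEC-like, 17.9% and 59.7% for mpEC-like, 3.46% and 48.2% for rEC-like cells, and 3.93% in juvenile pEC-like cells. Igfbp2 was called higher in juvenile cells of all 6 types, with log2 fold changes from 1.73 in pEC-like to 3.28 in aEC-like cells. The juvenile aEC-like share with an Igfbp2 UMI at 1000 UMIs was 10.5% and 11.9%, against 9.54% and 6.11% of haematopoietic cells in those libraries, so it lay near background in the first. In bmEC-like cells it stood at 664 and 682 CPM in juvenile, 147 and 147 in adult, and 5.13 and 19.4 in aged libraries, and in the second aged library 1 cell held 42 of the 64 UMIs. The Crispld1/Wnt5b-like class gave 715 and 761, then 93.1 and 107, then 9.23 and 8.28 CPM. Igfbp2 was lower in aged cells of the 3 types with adult shares above background, by log2 fold changes of -3.68 in bmEC-like (SE 0.15), -3.48 in Crispld1/Wnt5b-like (SE 0.19) and -4.07 in mpEC-like cells (SE 0.31). In aged aEC-like cells 2 UMIs were counted against 109 in adult ones, and in aged rEC-like cells 0 against 10. The adult shares at 1000 UMIs were 0.808% and 1.3% in aEC-like and 0.505% and 0.13% in rEC-like cells, below the 1.03% and 1.5% of haematopoietic cells in the same libraries, so the calls in these classes are not read as a loss of expression. By level, adult aEC-like cells held 15.7 plain CPM with both libraries pooled, above 7.67 and 8.50 in haematopoietic cells, so share and level part there. Juvenile rEC-like cells held 56.6 and 31.7 CPM, less than the 108 and 91.4 plain CPM of haematopoietic cells in the same libraries, so that juvenile difference is not read as expression by rEC-like cells. The sizes of the juvenile differences also differed between types, which passed the test of the interaction (adjusted p = 6.55e-04) but not without adult replicate 1 (0.239). In the aged comparison the interaction gave an adjusted p of 0.358, and 0.00163 without aged replicate 1, so both results turn on a single library. Such a difference between types was found for 11.4% of 11268 genes in the juvenile, 25.2% in the aged, 8.92% in the PTH and 5.59% in the alendronate comparison.

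Igfbp7 fell in aged cells of all 5 types with enough aged cells to sum, from -0.78 in Crispld1/Wnt5b-like to -1.52 in aEC-like cells (6226 and 5948 CPM in adult against 2119 and 2159 in aged aEC-like cells). Its juvenile course differed between types (interaction adjusted p = 2.42e-24). In juvenile bmEC-like cells it was lower, at 2804 and 2736 CPM against 5281 and 5448 in adult ones (-0.94, SE 0.03, adjusted p = 1.28e-25), and it was lower as well in Crispld1/Wnt5b-like (-0.84), mpEC-like (-0.84) and pEC-like cells (-0.82). Juvenile aEC-like cells were slightly higher, at 7243 and 6987 CPM (0.22, SE 0.04, adjusted p = 3.81e-04), and rEC-like cells were not called (-0.07, adjusted p = 0.750). Most juvenile aEC-like cells belonged to cluster 3 and most aged ones to cluster 1, which differ in Igfbp7 as given above.

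Igfbp4 in juvenile cells was called in 1 type only, bmEC-like cells, where it was slightly lower (2348 and 2317 against 2657 and 2588 CPM; -0.16, SE 0.03, adjusted p = 7.09e-05). The other types gave 0.06 in Crispld1/Wnt5b-like, 0.16 in aEC-like, 0.03 in mpEC-like, 0.29 in rEC-like and -0.15 in pEC-like cells, with none called. Igfbp4 was lower in aged cells of all 5 types, but by less than over all ECs in every type except aEC-like. In rEC-like cells the adult share with a UMI (20.2% and 24.0%) did not exceed that of haematopoietic cells in both libraries (20.3% and 23.7%), so their value is not read as a change in expression. The log2 fold changes were -0.47 in bmEC-like (2657 and 2588 CPM in adult, 2026 and 1981 in aged cells), -0.61 in Crispld1/Wnt5b-like, -0.58 in mpEC-like, -0.61 in rEC-like and -1.18 in aEC-like cells (SE 0.07). With plain totals, which shifted the median of all genes in bmEC-like cells to 0.42, the bmEC-like value was -0.06 and was not called, so it holds only relative to that shift. The aEC-like value turned to 0.28 when libraries were clustered without integration. With the mix of types held at its average over libraries and with plain totals, the aged-adult difference of Igfbp4 over all ECs went from -0.76 to -0.15. For Igfbp2 the same step went from -4.14 to -3.40, and for Igfbp7 from -0.95 to -0.98.

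Igfbp3 moved in opposite directions in different types. In juvenile cells it was higher than in adult ones in bmEC-like (0.73, SE 0.09, adjusted p = 2.74e-08, with the shares near background given above), Crispld1/Wnt5b-like (1.05, SE 0.11, adjusted p = 4.02e-11) and rEC-like cells (0.87, SE 0.20, adjusted p = 0.0117), and lower in aEC-like cells, at 976 and 1076 CPM against 1572 and 1610 (-0.64, SE 0.06, adjusted p = 4.95e-10). The interaction gave an adjusted p of 2.68e-13. In aged cells it was lower in aEC-like (-0.66), rEC-like (-0.55) and mpEC-like cells (-0.37), as well as in the bmEC-like class near background (-1.11), and higher in the Crispld1/Wnt5b-like class (0.66, SE 0.12, adjusted p = 2.83e-06), where 3 of 239 cells of the first aged library held 184 of 268 Igfbp3 UMIs. The clusters of the arterial class went opposite ways, with no test: in plain CPM, cluster 1 held 2225 and 2330 in adult against 837 and 819.7 in aged libraries, and cluster 3 held 1123 and 1127 against 1339 and 1560.2. The mpEC-like value turned to 0.25 at a finer clustering resolution of 0.8. Holding the mix of types took the aged-adult difference of Igfbp3 over all ECs from 0.19 to -0.71 (plain totals). The juvenile-adult difference of Igfbp3 went from -0.79 to -0.31 in the same step, and that of Igfbp7 from -0.76 to -0.46.

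**Figure D3:**
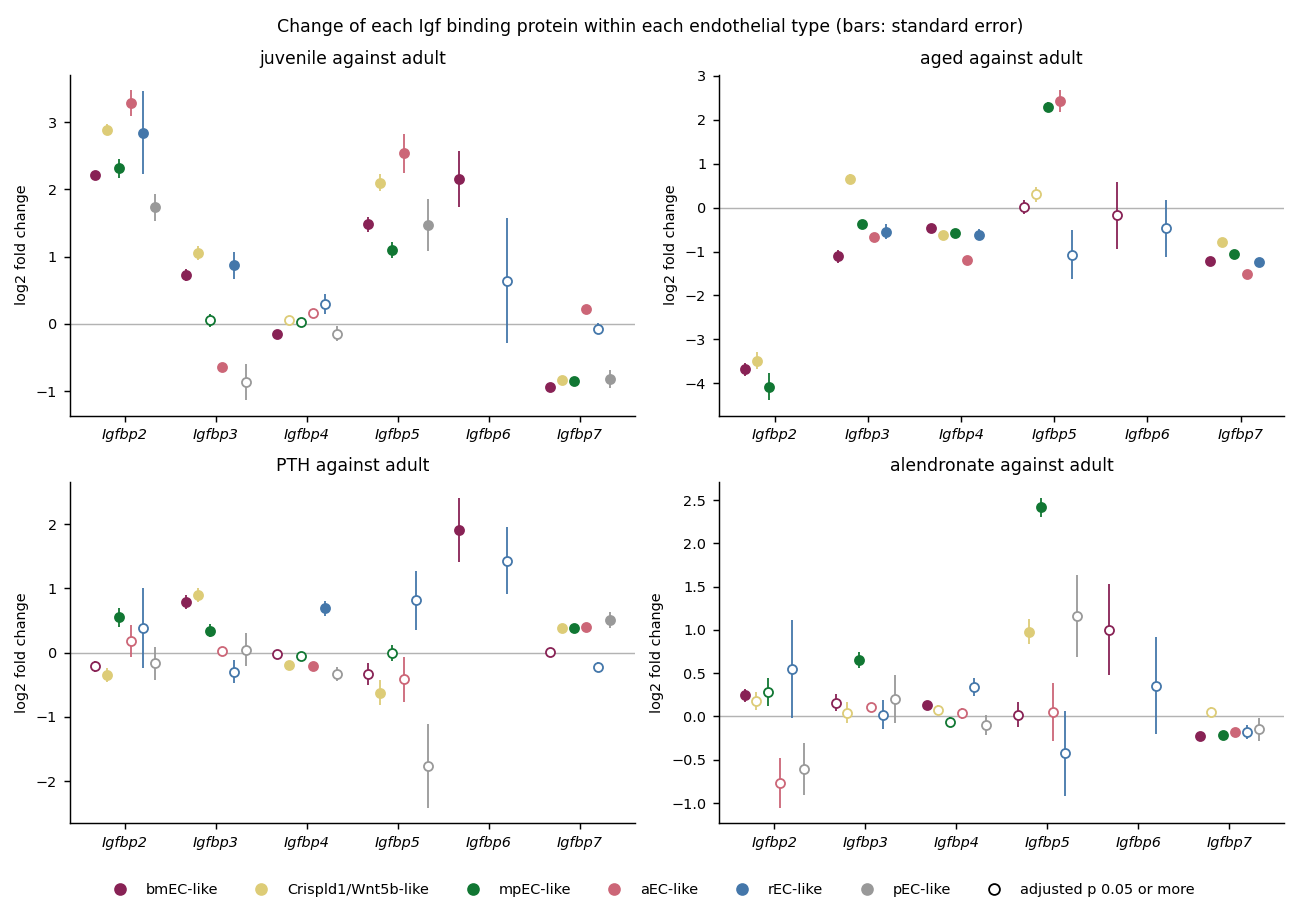
Log2 fold change of each Igfbp gene from adult within each endothelial type, for juvenile, aged, PTH and alendronate groups; filled points passed an adjusted p of 0.05, error bars are SE, and comparisons in which either group held 3 UMIs or fewer are left out. Igfbp2 lies above 1.7 in the juvenile comparison in all types, and Igfbp5 lies high in aged mpEC-like (2.29) and aEC-like cells (2.43) and in alendronate mpEC-like cells (2.42).

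Within mpEC-like cells Igfbp5 rose in aged and in alendronate mice. Its levels were 254 and 232 CPM in juvenile, 135 and 91.0 in adult, 602 and 504 in aged, 116 and 112 in PTH, and 669 and 548 in alendronate libraries. The aged and alendronate libraries all lay above the juvenile ones, and the adult and PTH libraries overlapped. The log2 fold changes from adult were 2.29 in aged (SE 0.11, adjusted p = 2.34e-19), 2.42 in alendronate (SE 0.11, adjusted p = 7.76e-19), 1.09 in juvenile (SE 0.12, adjusted p = 3.33e-09) and 0.00 in PTH cells (adjusted p = 0.993). Of all genes tested in mpEC-like cells, 59.7% were called in the aged, 17.9% in the juvenile and 8.42% in the alendronate comparison. Over the alternatives the aged value ranged from 1.03 with the marker gate to 2.58, and the alendronate value from 1.78 to 2.73.

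The Igfbp5 UMIs of mpEC-like cells sat in few cells. In the adult libraries the top 5% of cells held 90.2% and 90.1% of the UMIs, in the aged 93.2% and 92.5%, in the PTH 86.4% and 94.9%, in the alendronate 65.0% and 63.2%, and in the juvenile 47.3% and 54.9%. Single aged cells reached 148 and 311 UMIs, and 12 of 268 and 9 of 307 aged cells held 20 or more. At 1000 UMIs, 9.17% and 8.72% of aged, 19.6% and 17.8% of alendronate, 15.9% and 14.5% of juvenile, 5.56% and 4.47% of adult and 5.46% and 4.04% of PTH cells held an Igfbp5 UMI, beside 0.799 ± 0.915% of haematopoietic cells (15.4% and 3.21% unthinned). Those 12 and 9 aged cells, 2 of which scored as likely doublets, held 830 of 925 and 708 of 851 Igfbp5 UMIs, whereas the 20 and 12 alendronate cells with 20 or more held 716 of 1389 and 405 of 1020. The mesenchymal marker sum in mpEC-like cells was 7.97 and 9.73 plain CPM in adult, 23.8 and 24.9 in aged, and 10.5 and 13.8 in alendronate libraries. Over all ECs that sum was mostly Lepr, and its part in the aged value was not tested.

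**Figure D4:**
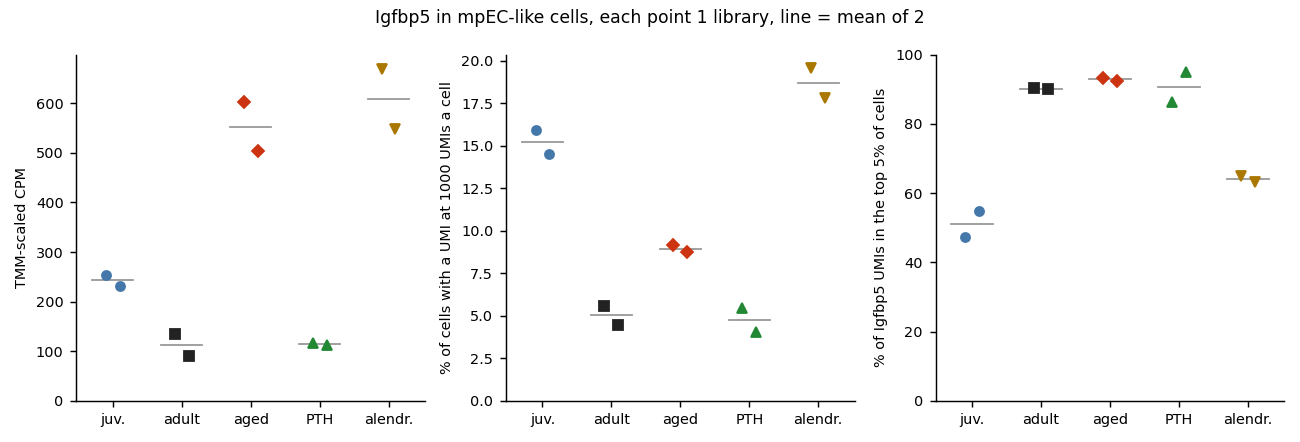
Igfbp5 in mpEC-like cells of the 10 libraries, as level (TMM-scaled CPM), as share of cells with a UMI at 1000 UMIs, and as percent of all Igfbp5 UMIs held by the top 5% of cells; each point is 1 library. Aged and alendronate libraries have similar levels, while the top 5% of cells held over 92% of the UMIs in the aged and 63.2% and 65.0% in the alendronate libraries.

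Elsewhere Igfbp5 was higher in juvenile cells of bmEC-like (81.0 and 72.9 against 27.9 and 27.9 CPM; log2 fold change 1.48), Crispld1/Wnt5b-like (304.5 and 308 against 79.6 and 62.1; 2.10), aEC-like (98.8 and 68.3 against 10.9 and 18.0; 2.53) and pEC-like cells (1.47). Haematopoietic cells of the juvenile libraries, 55 and 39 cells, held 27.8 and 126 plain CPM of Igfbp5. At 1000 UMIs the juvenile shares with an Igfbp5 UMI were 5.19% and 4.51% in bmEC-like and 6.64% and 3.93% in aEC-like cells, above the 1.92% and 2.89% of haematopoietic cells. The aEC-like value turned to -0.14 at a coarser clustering resolution of 0.3. In aged aEC-like cells Igfbp5 was called higher (55.2 and 101 CPM; 2.43, SE 0.25), but the marker gate gave -0.21. Only 2.57% and 2.86% of these cells held an Igfbp5 UMI, and 1 cell held 79 of 245 UMIs in the first and 103 of 448 in the second aged library. In plain CPM the aged level was 2.28 and 5.79 in cluster 1 and 133 and 225 in cluster 3. No call was made in aged bmEC-like (0.01), Crispld1/Wnt5b-like (0.30) or rEC-like cells (-1.08).

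PTH-treated mice were compared with adult mice of the same age. Over all ECs, 3 members were called higher and 2 lower, where 29.5% of all genes were called (14.9% higher, 14.6% lower). Igfbp3 stood at 671 and 661 CPM with PTH against 421 and 443 in adult ECs (log2 fold change 0.62, SE 0.05, adjusted p = 3.73e-09). Igfbp7 stood at 7198 and 6980 CPM against 5594 and 5693 (0.33, SE 0.03, adjusted p = 1.79e-08), the highest level of any group. Igfbp4 was lower, at 1425 and 1374 CPM against 1838 and 1817 (-0.39, SE 0.03, adjusted p = 3.44e-09), and Igfbp2 at 85.5 and 85.2 CPM against 99.6 and 104 (-0.25, SE 0.05, adjusted p = 5.12e-04). Igfbp6 was at 3.47 and 4.84 CPM against 0.783 and 0.974 (2.32, SE 0.31, adjusted p = 4.26e-06), and is not read as expression. The 67 and 106 haematopoietic cells of the PTH libraries held 4.69 and 2.88 plain CPM. With 29 Igfbp6 UMIs in the haematopoietic cells of all libraries, those values are coarse and cannot tell the EC level from background. Without PTH replicate 1 the 5 calls stayed, with Igfbp3 at 0.62, Igfbp7 at 0.31, Igfbp4 at -0.41, Igfbp2 at -0.25 and Igfbp6 at 2.46.

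The PTH difference in Igfbp3 over all ECs shrank when the mix of types was held, from 0.68 to 0.16 on the log2 scale with plain totals, while Igfbp7 went from 0.38 to 0.25. The lower values shrank as well in that step, Igfbp4 from -0.33 to -0.08 and Igfbp2 from -0.20 to -0.08. Within types, Igfbp3 was higher with PTH in Crispld1/Wnt5b-like cells (161 and 156 against 85.5 and 82.8 CPM; 0.90, SE 0.11), and by less in mpEC-like cells (0.35, SE 0.09), where the call was lost without PTH replicate 1 and the value was -0.03 without integration. The bmEC-like value (89.4 and 68.5 against 40.2 and 46.4 CPM, log2 fold change 0.79, SE 0.10) was called too. The share of these cells with an Igfbp3 UMI was not above the haematopoietic share in the first PTH library. By level, haematopoietic cells held less in both PTH libraries, at 56.3 and 59.5 plain CPM. As share and level part here, this call is not read as expression by bmEC-like cells. In aEC-like cells, where Igfbp3 was highest, it was 1656 and 1608 against 1572 and 1610 CPM (0.03, adjusted p = 0.813). Igfbp7 was higher with PTH in aEC-like (0.41), Crispld1/Wnt5b-like (0.39), mpEC-like (0.39) and pEC-like cells (0.51), and not called in bmEC-like (0.01, adjusted p = 0.907) or rEC-like cells (-0.22, adjusted p = 0.123); the interaction gave an adjusted p of 2.36e-12. The pEC-like call was lost without PTH replicate 1.

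Igfbp4 showed another split with PTH. Its count was higher in rEC-like cells (650.5 and 506 against 333 and 369 CPM; log2 fold change 0.69, SE 0.11, adjusted p = 1.94e-04), lower in aEC-like (-0.20) and Crispld1/Wnt5b-like cells (-0.19), and not called in bmEC-like (-0.02) or mpEC-like cells (-0.05), with an interaction adjusted p of 2.35e-08. Without PTH replicate 1 the Crispld1/Wnt5b-like call was lost. The share of rEC-like cells with an Igfbp4 UMI at 1000 UMIs was 40.7% and 30.4% with PTH against 20.2% and 24.0% in adult libraries. That of haematopoietic cells was 31.5% and 30.5% against 20.3% and 23.7%, so the rEC-like share was not above it in the second PTH library. Erythroid cells held less Igfbp4 than rEC-like cells, at 143 and 101 plain CPM with PTH and 143 and 85.1 in adult libraries. Cluster 9 held 5.57% and 6.12% of ECs and cluster 5 held 2.02% and 5.33% with PTH, against 2.17% and 2.41% and 5.01% and 4.45% in adult libraries. Within cluster 5 Igfbp4 stood at 240.2 and 184 plain CPM with PTH against 217 and 243, and within cluster 9 at 770.1 and 655 against 472 and 486. Igfbp2 was higher in mpEC-like cells with PTH (163 and 151 against 109 and 102 CPM; 0.55, SE 0.15, adjusted p = 0.0183), a call lost without PTH replicate 1 (0.51), and lower in the Crispld1/Wnt5b-like class (84.9 and 75.4 against 93.1 and 107 CPM; -0.35, SE 0.11, adjusted p = 0.0365), where the marker gate gave 0.14. Igfbp5 was called lower in the Crispld1/Wnt5b-like class as well, at 67.5 and 36.3 against 75.7 and 59.9 plain CPM, and its sign changed with the marker gate. Genes called with PTH made up 8.74% in bmEC-like, 11.1% in Crispld1/Wnt5b-like, 10.5% in aEC-like, 6.84% in mpEC-like, 5.47% in rEC-like and 1.66% in pEC-like cells. In all, 15 tests of a member in a type were called with PTH, 11 without PTH replicate 1, 7 without adult replicate 1 and 9 without PTH replicate 2.

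Alendronate-treated mice gave 3 members called higher and 2 lower over all ECs, where 27.9% of all genes were called (14.9% higher, 13.0% lower). Igfbp5 stood at 112 and 87.2 CPM against 44.0 and 38.7 in adult ECs (log2 fold change 1.27, SE 0.10, adjusted p = 2.06e-09). Of 15314 genes, 291 (1.90%) lay as far or farther from 0 in the same direction, Igfbp5 included. Igfbp3 was at 598 and 530 CPM (0.39, adjusted p = 6.72e-06), a difference that went from 0.37 to 0.06 when the mix of types was held. Igfbp7 was slightly lower, at 5219 and 5042 CPM (-0.14, SE 0.03, adjusted p = 1.62e-03), and so was Igfbp4, at 1739 and 1692 CPM (-0.09, SE 0.03, adjusted p = 0.0376), a call that several alternatives did not keep. With plain totals the Igfbp4 difference went from -0.11 to 0.11 when the mix of types was held. Igfbp6 was at 3.59 and 2.07 CPM (1.69, adjusted p = 5.56e-04), beside 1.38 and 1.40 plain CPM in haematopoietic cells. Igfbp2, at 97.9 and 98.3 CPM, was not called (-0.05, adjusted p = 0.473).

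Within types, 8 tests were called with alendronate, where 16.7% of genes were called in bmEC-like, 5.89% in Crispld1/Wnt5b-like, 12.4% in aEC-like, 8.42% in mpEC-like, 2.9% in rEC-like and 1.5% in pEC-like cells. Besides mpEC-like cells, Igfbp5 was higher in the Crispld1/Wnt5b-like class (177 and 106 against 79.6 and 62.1 CPM; 0.98, SE 0.15, adjusted p = 5.81e-06), and no call was made in bmEC-like (0.02), aEC-like (0.05) or rEC-like cells (-0.42), with an interaction adjusted p of 1.87e-09. Igfbp3 was called higher in mpEC-like cells (702 and 758 against 417 and 508 CPM, log2 fold change 0.65, SE 0.09, adjusted p = 5.65e-06) and in no other type. The difference between types passed the interaction test (adjusted p = 0.0145), but not without adult replicate 1, adult replicate 2 or alendronate replicate 2. Igfbp4 and Igfbp2 were higher in bmEC-like cells, by 0.14 and 0.24, and Igfbp7 was lower in bmEC-like (-0.23), aEC-like (-0.18) and mpEC-like cells (-0.21). The mpEC-like value of Igfbp7 changed sign with the marker gate, as given further on.

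Compared directly, the treatments differed in 5 of 6 members over all ECs, 2 higher and 3 lower with PTH, where 31.4% of all genes were called (15.3% higher, 16.2% lower). Igfbp7 (log2 difference PTH minus alendronate 0.47, adjusted p = 1.02e-10) and Igfbp3 (0.24, adjusted p = 1.09e-03) were higher with PTH, and Igfbp5 (-1.02, adjusted p = 3.38e-08), Igfbp4 (-0.29, adjusted p = 2.83e-07) and Igfbp2 (-0.20, adjusted p = 3.88e-03) were lower. Igfbp6 (0.63) had an adjusted p of 0.0502 and passed without PTH replicate 1. In mpEC-like cells Igfbp5 was lower with PTH than with alendronate by a log2 difference of -2.42 (SE 0.10, adjusted p = 1.31e-19, 13.0% of genes called there). In the sparser pEC-like class Igfbp5 gave -2.92 (SE 0.58, adjusted p = 0.00427), from 11 UMIs with PTH and 47 with alendronate. Of those 47, replicate 1 held 8 and replicate 2 held 39, so the value leans on a single library. The share of all genes called in that class is not given. Both treatments share the adult controls, so their differences from adult are given side by side only.

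Stromal cells were sorted along with the ECs and were compared with the summed ECs of the same library in 9 libraries with at least 20 mesenchymal cells. Igfbp6 separated these cells most, at 11.9 plain CPM in juvenile replicate 1, 308 and 498 in adult, 6004 and 6975 in aged, 3847 and 2897 in PTH, and 2779 and 2154 in alendronate libraries, against 0.744 to 4.78 in ECs. The mesenchymal minus endothelial log2 difference was 9.77 (SE 0.78, adjusted p = 1.28e-07). Igfbp5 was higher as well, at 230 to 2419 CPM with a median of 1317 (4.22, SE 0.40, adjusted p = 8.84e-07), and Igfbp3 was lower, at 32.6 to 214 CPM (-2.25, SE 0.28, adjusted p = 1.91e-05). Igfbp4 was higher by less than the fold threshold, at 2065 to 2886 CPM (0.79, SE 0.10, adjusted p = 2.15e-05), and Igfbp2 (0.19, adjusted p = 0.792) and Igfbp7 (-0.10, adjusted p = 0.594) were not called. That made 2 members higher and 1 lower, where 14.0% of 11686 genes were called (7.44% higher, 6.52% lower), and the calls stayed at 3 when any library was left out.

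The mesenchymal cells came from clusters of different kinds. One of 282 cells carried Cxcl12, Adipoq and Lepr, markers of marrow stromal cells, and also sinusoidal Stab2 (1244 plain CPM) and Cdh5 (805 CPM), and the part of endothelial RNA in its values was not tested. It held 2147 CPM of Igfbp5 and 2.36 CPM of Igfbp6. The other, of 207 cells, carried Bglap, Dcn and Col1a1, markers of osteoblasts and fibroblasts, and held 5974 CPM of Igfbp6 and 540 CPM of Igfbp5. Aged libraries had 0 and 1 cells of the first and 45 and 42 of the second, adult libraries 59 and 70 of the first and 7 and 9 of the second, so the groups differed in the mix of these clusters. Within the second cluster Igfbp6 stood at 6481 CPM in aged, 5289.8 in PTH and 6338 in alendronate cells. The 54 mural cells, too few to test, held 643 CPM of Igfbp5 (95% Poisson interval 553 to 743), 6335 CPM of Igfbp7 (6046 to 6634) and 0 UMIs of Igfbp6, which allows up to 10.5 CPM, intervals and limits covering counting error only.

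**Figure D5:**
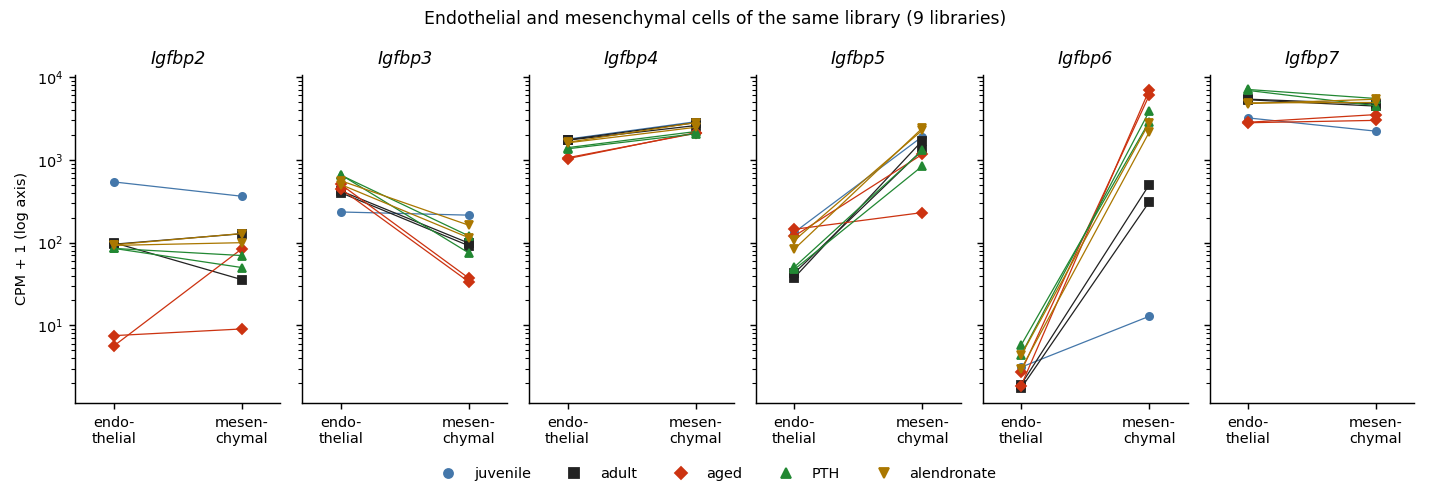
Level of the 6 Igfbp genes in mesenchymal cells and in all endothelial cells of the same library (plain CPM + 1 on a shared log axis; 9 libraries with at least 20 mesenchymal cells, 1 point each). Igfbp6 spans 11.9 to 6975 CPM in mesenchymal cells and stays under 5 CPM in endothelial cells, and Igfbp3 is lower in mesenchymal cells in every library.

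Other genes of the pathway gave the ligands and proteases around these proteins. Of the 24 listed, 13 were measured well enough to test between types. Igf2 was highest in the arterial and remodelling classes, at 27.2 ± 21.2 CPM among aEC-like cells and 29.3 ± 21.3 among rEC-like cells against 0.468 to 1.74 in the others (log2 differences 4.09 and 3.98). Igf1 was higher in bmEC-like (42.7 ± 28.8 CPM; 1.47) and rEC-like cells (41.6 ± 13.0; 1.87) and lower in aEC-like cells (3.64 ± 3.95; -2.95). Htra1, a secreted protease known to cut IGF binding proteins, was higher in aEC-like (126 ± 54.2 CPM; 3.62) and rEC-like cells (33.0 ± 5.95; 1.19), and Stc1, an inhibitor of pappalysin, was higher in aEC-like cells (162 ± 32.3 CPM; 1.51). The insulin receptor Insr was higher in bmEC-like cells (359 ± 81.1 CPM; 1.17), and the receptor adaptor Grb14 in the Crispld1/Wnt5b-like class (14.8 ± 8.68 CPM; 2.37). Genes of the list called higher and lower were 2 and 2 in bmEC-like, 1 and 2 in Crispld1/Wnt5b-like, 3 and 1 in aEC-like, 0 and 2 in mpEC-like, 3 and 1 in rEC-like and 0 and 0 in pEC-like cells. Over all genes, those shares were 14.0%, 4.88%, 10.4%, 5.58%, 13.7% and 9.02% in either direction.

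Between groups 14 of the 24 genes were tested over all ECs, where 43.1% of all genes were called in the juvenile, 73.8% in the aged, 29.5% in the PTH and 27.9% in the alendronate comparison. In juvenile ECs 7 were higher and 5 lower, led by Igf1 (79.4 and 75.0 CPM against 14.4 and 13.8; log2 fold change 2.45, SE 0.07, adjusted p = 3.73e-17) and by Grb14 (-1.75) and Htra1 (-1.27). Aged ECs had 8 higher and 2 lower, led by Igf2 (3.07, SE 0.17, adjusted p = 1.68e-13) and the receptor Igf1r (1.52, SE 0.06, adjusted p = 1.64e-15), with the RNA-binding protein gene Igf2bp3 lower (-1.41). With plain totals, which shift all genes upward in this comparison, 11 were higher and 2 lower. PTH gave 7 higher and 3 lower, among them Igf2 (1.25), Htra1 (0.92) and Insr (-0.34), and alendronate 6 higher and 0 lower, among them Igf2 (1.55), Htra1 (1.1), Stc1 (0.89) and Igf1 (0.84). In mesenchymal cells, where 14.0% of all genes were called, 3 of 14 tested were higher than in ECs, Pappa (8.06, SE 0.36), Igf1 (2.45) and Grb14 (2.06), and Igf2 was lower (-3.68).

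Likeness of expression was measured as Pearson's r of log2(CPM + 1) over 58 sums of a type and a library, which share libraries and depth, among 6679 genes. Igfbp4 had the closest companions, the genes Gpr97 (r = 0.963), Kcnj8 (0.962) and Npl (0.959). Those of Igfbp2 were Ap2s1 (0.930), Rab5c (0.926) and Tmsb10 (0.921), and those of Igfbp3 were Plk2 (0.903), Eogt (0.890) and Adam15 (0.884). Igfbp5 was followed at a distance by Inhbb (0.762), Trib1 (0.752) and Nav3 (0.710), Igfbp6 by Fgl2 (0.759), Mustn1 (0.741) and Gm6166 (0.714), and Igfbp7 by its overlapping neighbour Polr2b (0.804), Bre (0.785) and Adh5 (0.784). Among the members, Igfbp2 and Igfbp4 had the highest r (0.75) and Igfbp3 and Igfbp4 the lowest (-0.66).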

How the data were processed

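The 10 libraries of droplet single-cell RNA (10x Chromium 3′ kits) came from 5 groups of 2, and the authors deposited 1 table of UMI counts per library, whole numbers per gene and barcode with no normalization. The tools named in the submitters' processing notes are UMI-tools 1.1.2, STAR 2.7.10a and featureCounts 2.0.3, with mm10 as the genome, and the annotation release and strand setting are not given in the sources used here. Counting error, batch and depth touch these values as follows: only the 3′ end of a transcript is counted, so a level (CPM) is a share of UMIs with no length scaling, and sums of few cells are coarse.

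Cells with 500 to 6000 genes and under 25% mitochondrial UMIs were kept. Cells were clustered with Seurat 5.3.0 (2000 features, 30 components, resolution 0.5, anchors between libraries), leaving out the members, the other IGF genes and cell-cycle genes, and clusters were named from fixed marker lists. Doublets were scored but kept, and 1954 cells were left out in an alternative. UMIs were summed per library and type (at least 20 cells) and tested with edgeR 4.0.16 (R 4.3.3), by the quasi-likelihood test with TMM and filterByExpr on all genes, with Benjamini-Hochberg adjustment at 0.05. Types were fitted with the library as a block and a log2 fold change beyond 1, groups with all 5 groups in 1 fit. On simulated data with 200 genes changed 2-fold, 198 were recovered in the comparison of aged with adult ECs (10148 genes) and 198 in that of mpEC-like cells with other types (10231 genes). The simulation set a fixed dispersion and left out genes of low level. It checks that the code runs as meant and does not measure the power for Igfbp6 or for sparse sums. For shares of cells, each cell was thinned to 1000 UMIs, which left out 1873 endothelial and 25 haematopoietic cells.

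The members and lists were chosen with earlier results of these data known. Genes named are the 6 members, IGF genes of the list with a mean of at least 5 CPM in a type, the 3 genes most like each member in Pearson's r (mean of at least 20 CPM), and markers where they name or check a type; those below 5 CPM, Igfbp1 and Pappa, were named after their values were seen. Replicate numbers do not pair the samples: same-numbered libraries of 2 groups correlated in their deviations by -0.015 to 0.047 over 10 group pairs. The 2 libraries of a group differed by more than the sampling noise of UMIs (chi-square per degree of freedom 1.56 to 2.82). That value cannot tell different cells of the same pool from independent replicates, since UMIs are spread unevenly over cells. Each library was counted as 1 replicate. Alternatives were DESeq2 1.42.0, its size factors in edgeR, plain totals, no filter on low counts, stricter cell filters (38904 ECs), other clusterings, a marker gate, each library left out, the replicate block and fits of 2 groups. Plain totals throughout, within-type interaction and stromal fits with libraries left out were chosen after seeing the data. Promoter sequences are from RefSeq, where all 6 members were matched, and gene positions from GENCODE.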

Additional observations from a re-analysis of the deposited data

Results flagged for a closer look

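The results below were picked out because the change from adult differed between 5 endothelial types (all but pEC-like cells) by the interaction test of edgeR over 11268 genes. In the juvenile comparison the adjusted p was 6.55e-04 for Igfbp2, 2.68e-13 for Igfbp3, 0.0116 for Igfbp4, 6.31e-04 for Igfbp5 and 2.42e-24 for Igfbp7. In the aged comparison it was 1.11e-06 for Igfbp3, 5.46e-11 for Igfbp4, 6.12e-11 for Igfbp5 and 6.49e-12 for Igfbp7. With PTH it was 0.0180 for Igfbp2, 1.42e-05 for Igfbp3, 2.35e-08 for Igfbp4 and 2.36e-12 for Igfbp7, and with alendronate 0.0145 for Igfbp3, 1.87e-09 for Igfbp5 and 0.0147 for Igfbp7. The values by type stand in the report, and the 4 comparisons share the adult libraries. Several rest on single libraries. With alendronate, Igfbp3 was not called without adult replicate 1 (0.518), adult replicate 2 (0.0538) or alendronate replicate 2 (0.563), and Igfbp7 was not called without adult replicate 1 (0.0620), adult replicate 2 (0.30), alendronate replicate 1 (0.224) or alendronate replicate 2 (0.0953). With PTH, Igfbp2 was not called without adult replicate 1 (0.0792), adult replicate 2 (0.161), PTH replicate 1 (0.108) or PTH replicate 2 (0.0821). In the juvenile comparison Igfbp2 was not called without adult replicate 1 (0.239), and Igfbp4 not without juvenile replicate 1 (0.204) or adult replicate 1 (0.269).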

How the results depend on the processing

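The count of members called between types was 18 and ranged from 16 to 18 when 1 library was left out. Over all ECs the count of 5 in each comparison ranged, with 1 library left out, over 5 to 5 for juvenile, 4 to 5 for aged, 5 to 6 for PTH, 4 to 5 for alendronate and 5 to 6 for PTH against alendronate. Within types the ranges were 19 to 23 for juvenile (22 called) and 21 to 24 for aged (22). They were 7 to 16 for PTH (15), 6 to 10 for alendronate (8) and 15 to 19 for PTH against alendronate (19). For PTH against alendronate the share of all genes called within a type is given for mpEC-like cells only (13.0%). Those 19 calls are therefore not read as a result about the members. The lowest PTH counts were 7 without adult replicate 1 and 9 without PTH replicate 2. The interaction calls ranged over 3 to 5 for juvenile (5), 4 to 5 for aged (4), 3 to 4 for PTH (4) and 1 to 4 for alendronate (3), with 3 for juvenile without adult replicate 1 (Igfbp2 and Igfbp4 lost) and 1 for alendronate without adult replicate 1, adult replicate 2 or alendronate replicate 2. The stromal count stayed at 3 to 3.

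Other settings gave lower within-type counts: DESeq2 gave 7 for PTH, 5 for alendronate and 12 for PTH against alendronate, resolution 0.3 gave 8 for PTH, and no integration gave 8 for PTH and 13 for aged. The clustering settings had fewer tests, 27 in place of 33 for PTH and, without integration, 17 in place of 28 for aged. The Crispld1/Wnt5b-like class, with 5 of the PTH and 4 of the aged calls, was absent there, and without integration the aged comparison also had no mpEC-like values, a class with 5 aged calls. With the replicate number as a block the counts over all ECs were 5, 5, 5, 5 and 6, and within types 23, 23, 15, 9 and 19, for juvenile, aged, PTH, alendronate and PTH against alendronate. Thinning to 2000 UMIs moved the shares to 54.3% for Igfbp3 in aEC-like, 97.8% for Igfbp4 in bmEC-like and 1.32% for Igfbp6 in rEC-like cells, and more UMIs per cell by construction give larger shares. With 1 library left out, shares ranged over 13.1 to 16.8% for Igfbp2 in pEC-like, 42.3 to 44.5% for Igfbp3 in aEC-like, 87.7 to 88.4% for Igfbp4 in bmEC-like, 9.51 to 11.2% for Igfbp5 in mpEC-like, 0.496 to 0.663% for Igfbp6 in rEC-like and 91.6 to 93.3% for Igfbp7 in bmEC-like cells.

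Of single values that had been called, 14 changed sign under an alternative. Igfbp2 with alendronate over all ECs, which was not called (-0.05), was 0.19 with the mix of types held. Igfbp3 in aged ECs went to 0.21 with plain totals, and Igfbp4 with alendronate to 0.11 with the mix of types held. The marker gate gave 0.14 for Igfbp2 and 0.37 for Igfbp5 with PTH in Crispld1/Wnt5b-like cells, -0.21 for Igfbp5 in aged aEC-like cells and 0.039 for Igfbp7 with alendronate in mpEC-like cells. Resolution 0.3 gave -0.14 for Igfbp5 in juvenile aEC-like cells and -0.42 for Igfbp2 in aEC-like cells between treatments, and resolution 0.8 gave 0.25 for Igfbp3 in aged mpEC-like cells and -0.26 for Igfbp5 in rEC-like cells between treatments, which ranged from -0.70 without PTH replicate 2 to 1.59 without PTH replicate 1. No integration gave 0.28 for Igfbp4 in aged aEC-like cells, -0.10 for Igfbp2 in aEC-like cells between treatments and -0.029 for Igfbp3 with PTH in mpEC-like cells. The cause was not tested. Of the other values for single members, 4419 counted as unchanged, 160 lost a call, 98 gained one and 16 moved when the mix of types was held. Unchanged values kept their side of the threshold or had no adjusted p, and a change of sign was looked for only in called ones. With the mix of types held, unchanged meant within the spread of the libraries. The Crispld1/Wnt5b-like class was not found at resolution 0.3, at 0.8 or without integration, so those settings give no value for it, and the gate and the clusters gave the same name to 26845 of 33977 cells named by both. Depth limits Igfbp6, with 403 UMIs in ECs, and every aged level of Igfbp2 within a type.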

Other observations

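The 47 unnamed ECs led by Ccl21a and Lyve1, both known in lymphatic vessels, held 472 Igfbp5 UMIs and 0 Igfbp2 UMIs. Over those cells, too few to test, this was 2331 plain CPM of Igfbp5 and 928 of Igfbp7. The 2838 unnamed sinusoidal-like ECs led by haemoglobin genes held 2315 plain CPM of Igfbp4 and 62.6 of Igfbp3, beside 2347 and 47.7 in the largest bmEC-like cluster.

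Clusters within the rEC-like class also differed in level. Cluster 5 held 535 plain CPM of Igfbp3 and 179 of Igfbp4, and cluster 9 held 271 and 589, as means over libraries. In mpEC-like cells Igfbp5 stood at 375 in cluster 4 and 176 in cluster 10. These values come from the clusters themselves and carry no test.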
